A study of Sus scrofa with 4 samples.

Results

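Cathepsins are the proteases of the lysosome, and 8 of their genes (CTSB, CTSC, CTSD, CTSH, CTSK, CTSL, CTSS and CTSZ) were followed in the spleen of miniature pigs. The members were taken by gene symbol, and every probe whose transcript accession belonged to one of these genes was read on every array. Probes were found for 5 of the 8 genes, 10 probes in all among 43575 probes kept and 3020 genes that could be named. They were 4 probes for CTSB, 2 each for CTSD and CTSH, and 1 each for CTSK and CTSZ. CTSC, CTSL and CTSS had no probe under those symbols, and CTSC and CTSS are not analysed here. CTSL is an older symbol of the pig gene CTSV, whose 10 probes are described apart from the members below. Total RNA of whole spleen was measured on 4 one-colour arrays, 3 from wild type animals (WT) and 1 from an animal labelled IL2RG +/- (KO), all of the Minnesota miniature swine breed. IL2RG encodes the common gamma chain, a receptor subunit shared by several interleukins, and the KO line was made with TALENs, nucleases that cut a chosen site, followed by cloning of edited cell colonies by nuclear transfer. Age and sex of the arrayed animals are not in the labels, and the labels do not say whether the 3 WT arrays are separate animals, so every p-value below measures only the spread between these arrays, which may be technical.

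Cathepsins are made as inactive precursors, carried to the lysosome mostly by mannose 6-phosphate receptors, and activated there at acid pH by removal of a propeptide. CTSB, CTSC, CTSH, CTSK, CTSL, CTSS and CTSZ use a cysteine in the active site, whereas CTSD uses an aspartate pair. In the spleen they are abundant in macrophages, which digest engulfed red cells and microbes, and in other antigen-presenting cells, in which they trim the invariant chain and cut proteins into peptides for MHC class II.

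Between 66.1% and 72.7% of the 43803 spots of each array were well above background, and no spot was saturated. Values are log2 of the processed intensity relative to the 75th percentile of the same array, so that 0 is the level of that percentile and a difference of 1 is a 2-fold change. WT 1 and KO shared 1 slide, and WT 2 and WT 3 shared the other, so WT 1 is the array that can be set against KO within a slide. IL2RG itself was lower on the KO array than on each WT array by both of its probes, although the difference did not pass the test. Its brighter probe read -0.64, -1.49 and -1.48 in WT 1, WT 2 and WT 3 and -1.98 in KO, a difference from the WT mean of -0.77 (adjusted p = 0.578 by limma). Its dimmer probe read -1.18, -2.11 and -2.18 in WT and -3.95 in KO, so KO minus the WT mean was -2.12 (adjusted p = 0.403 by limma). No probe of the 33464 tested passed an adjusted p of 0.05 with limma, the smallest value being 0.0715, while 3775 (11.3%) had an unadjusted p under 0.05 in either direction.

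All 5 members with a named probe read higher on the KO array than on each of the 3 WT arrays, and so did each of their 10 probes. For CTSV, which may be the gene called CTSL and is kept apart, KO lay inside the WT range. Each gene is represented by its brightest probe. The KO array was 3.12-fold above the WT mean for CTSZ, 2.42-fold for CTSB, 2.19-fold for CTSD, 1.92-fold for CTSH and 1.25-fold for CTSK. None of the 5 genes passed the test, since the adjusted p by limma was between 0.410 and 0.683, and 0.0% of all probes tested passed it. Before adjustment 4 of the 5 genes, all but CTSK, had a limma p under 0.05, as did 9 of the 10 probes, against 5.33% of all probes, 10.7% of the named genes and 11.9% of the named genes whose probe was among the 8366 brightest, for the same direction. In whole spleen, more cells of a type that holds cathepsins and more cathepsin RNA per cell cannot be told apart.

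**Figure D1:**
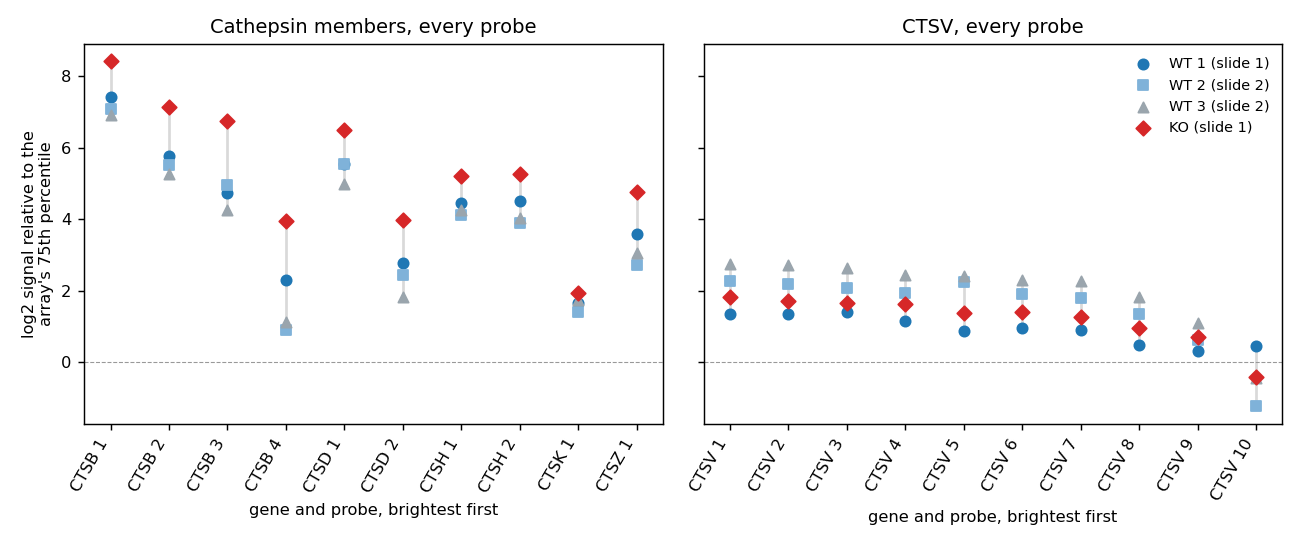
Levels of the 10 cathepsin probes (left) and the 10 CTSV probes (right) on the 4 arrays, on the vertical axis as log2 signal relative to the 75th percentile of each array, with circles for WT 1, squares for WT 2, triangles for WT 3 and red diamonds for KO. The KO diamond is the highest mark for all 10 cathepsin probes, with the smallest gap for CTSK (1.93 in KO against 1.74 in WT 3), and lies within the WT marks for the CTSV probes. Heights of different probes cannot be compared with each other.

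CTSB cuts peptide bonds within proteins and also removes dipeptides from the carboxyl end of a chain. Its brightest probe read 7.42, 7.09 and 6.90 in WT 1, WT 2 and WT 3 and 8.41 in KO, so that the KO value lay above a WT range of 0.52. The WT mean was 7.14 ± 0.26 (SD, n = 3), and the KO array was higher by 1.28 (SE 0.34, 95% interval 0.33 to 2.22, adjusted p = 0.410 by limma). The other 3 CTSB probes pointed the same way, with larger differences the dimmer the probe. The second probe read 5.76, 5.50 and 5.26 in WT and 7.13 in KO, and the third read 4.75, 4.94 and 4.26 in WT and 6.74 in KO. The fourth, the dimmest, read 2.31, 0.91 and 1.12 in WT and 3.96 in KO. These gaps amounted to 3.08-fold, 4.27-fold and 5.70-fold over the WT mean, and the adjusted p by limma was 0.381, 0.371 and 0.413. The WT arrays were closest together on the 2 brightest probes (SD 0.26 and 0.25) and farthest apart on the dimmest (SD 0.76), on which WT 1 stood above the other WT arrays.

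CTSH, an aminopeptidase that trims residues from the amino end of a chain, had the smallest WT spread of the 5 genes together with CTSK. Its brighter probe read 4.46, 4.13 and 4.25 in WT 1, WT 2 and WT 3 and 5.22 in KO. The WT mean was 4.28 ± 0.17 (SD, n = 3) and the difference was 0.94 (SE 0.29, 95% interval 0.11 to 1.76, adjusted p = 0.430 by limma). Its other probe read 4.52, 3.91 and 4.03 in WT and 5.26 in KO, 2.16-fold above the WT mean (adjusted p = 0.435 by limma), so that the CTSH gap was under 2-fold by 1 probe and over it by the other. CTSZ, also called cathepsin X, is a carboxypeptidase that removes single residues and is known from monocytes and macrophages. The CTSZ probe read 3.59, 2.73 and 3.04 in WT 1, WT 2 and WT 3 and 4.76 in KO. This gave the largest difference of the 5 genes, 1.64 above a WT mean of 3.12 ± 0.44 (SD, n = 3; SE 0.44, 95% interval 0.40 to 2.88, adjusted p = 0.413 by limma). WT 1 was again the highest of the WT arrays, and KO exceeded it by 1.17.

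CTSD, the aspartic endopeptidase that carries much of the bulk protein breakdown in lysosomes, had both probes highest in KO. The brighter one read 5.53, 5.55 and 4.98 in WT 1, WT 2 and WT 3 and 6.48 in KO, and WT 3 alone stood apart among the WT arrays. The WT mean was 5.35 ± 0.33 (SD, n = 3) and the difference was 1.13 (SE 0.37, 95% interval 0.08 to 2.17, adjusted p = 0.433 by limma). The dimmer one read 2.76, 2.44 and 1.83 in WT and 3.99 in KO, 3.13-fold above the WT mean (adjusted p = 0.416 by limma). CTSK, the collagen-cutting cathepsin of osteoclasts, gave a different picture. Its probe read 1.66, 1.40 and 1.74 in WT 1, WT 2 and WT 3 and 1.93 in KO, and the step from WT 3 to KO, 0.19, was close to the WT SD of 0.18. The difference of 0.33 had a 95% interval of -0.51 to 1.16 (adjusted p = 0.683 by limma), which leaves room for a decrease as well as for a 2-fold increase.

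Setting KO against WT 1, its partner on the slide, gave smaller gaps for each of the 5 genes than setting it against the WT mean. They were 1.17 for CTSZ, 1.00 for CTSB, 0.95 for CTSD, 0.76 for CTSH and 0.26 for CTSK, and all 10 probes were again higher in KO. Only CTSZ was then at least 2-fold higher, at 2.25-fold, while CTSB stood just below that limit at 1.99-fold. Among the 10 probes 5 were at least 2-fold above WT 1, and 3 of these were the dimmer CTSB probes. Over the 5 genes the median difference was 1.13 against the WT mean and 0.95 against WT 1. WT 1 was itself above the mean of WT 2 and WT 3 by a median of 0.27. With slide as a block in the limma fit the adjusted p lay between 0.293 for CTSZ and 0.732 for CTSK, and no gene passed. In that fit the 95% interval was above 0 for CTSB (0.16 to 1.83) and CTSZ (0.22 to 2.12), and took in 0 for CTSD (-0.34 to 2.24), CTSH (-0.03 to 1.55) and CTSK (-0.71 to 1.23). The difference in that fit is KO minus WT 1, 1 array against 1. Its spread comes only from WT 2 against WT 3 on the other slide, shared over probes by limma. The intervals therefore do not measure spread within the slide of KO.

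**Figure D2:**
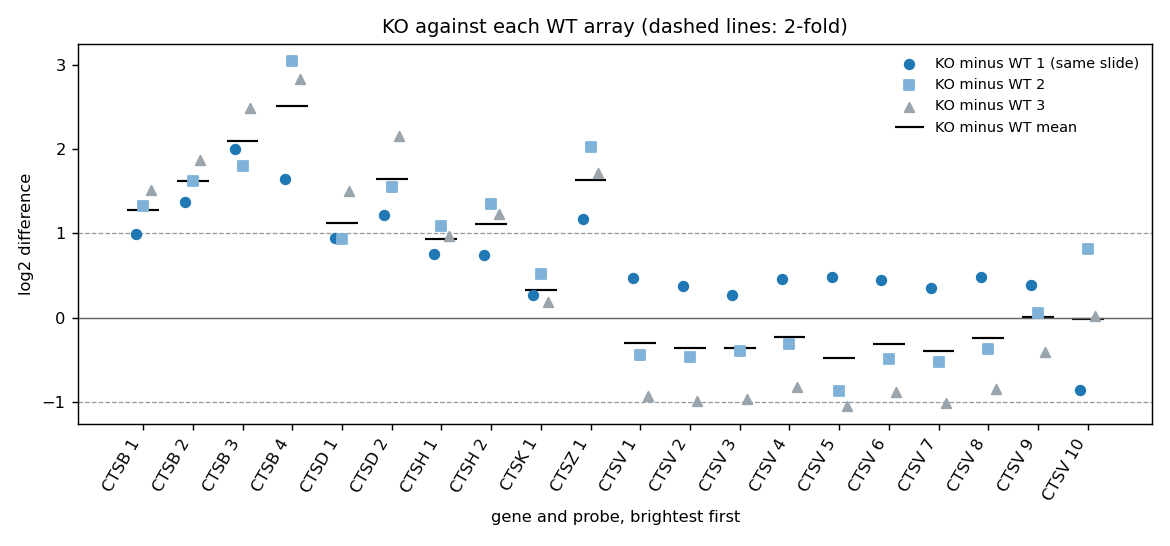
KO minus WT 1 (circles, same slide), WT 2 (squares) and WT 3 (triangles), and KO minus the WT mean (bars), for each cathepsin and CTSV probe on the log2 scale, with 2-fold marked by dashed lines. All differences of the 10 cathepsin probes are above 0, whereas the brightest CTSV probe is above WT 1 by 0.47 and below WT 2 and WT 3.

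A high value in KO was more common among named genes than among all probes tested. The share was higher again among named genes with bright probes, except for a 2-fold gap over WT 1. The cathepsin probes are bright. The brightest probes of the 5 genes ranked between the 80.8th and the 99.0th percentile of mean signal. KO exceeded all 3 WT arrays on 27.0% of all probes tested, on 38.1% of named genes and on 45.7% of the 1220 bright named genes (those with a probe among the 8366 brightest), against 5 of 5 cathepsins. KO was at least 2-fold above the WT mean on 7.71%, 14.0% and 15.1% of the same sets, against 3 of 5 cathepsins (CTSB, CTSD and CTSZ) and 8 of their 10 probes. Within the shared slide KO exceeded WT 1 on 48.2%, 58.8% and 61.0% of these sets and did so at least 2-fold on 7.94%, 13.4% and 11.1%, against 5 and 1 of the 5 cathepsins. The median difference between KO and WT was -0.11 over all probes tested, 0.08 over named genes and 0.19 over the bright named genes, each below the cathepsin median of 1.13. Ranked among all probes tested, the difference of CTSZ lay at the 97.1st percentile, CTSB at the 95.02nd, CTSD at the 93.8th, CTSH at the 91.4th and CTSK at the 74.8th.

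**Figure D3:**
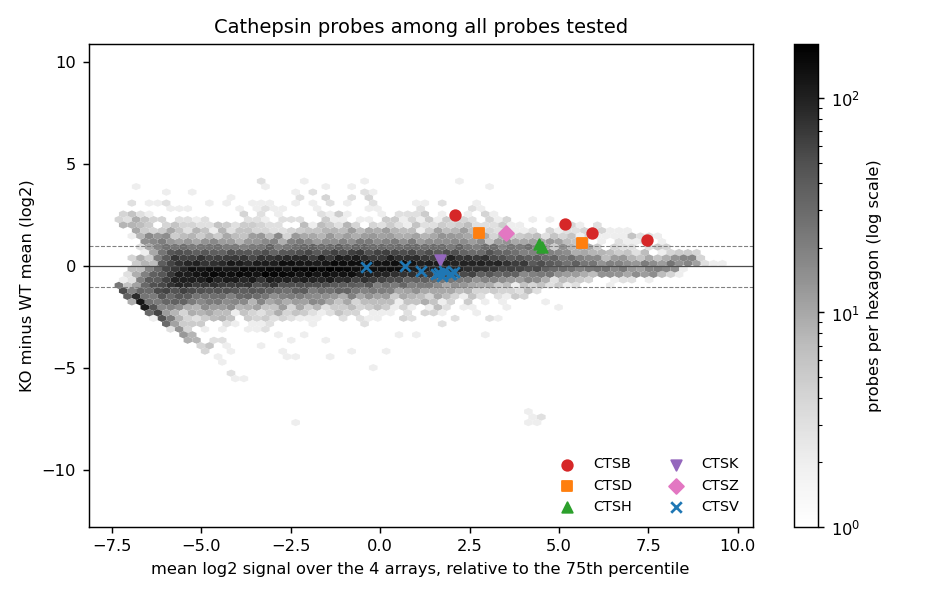
KO minus WT mean (vertical axis, log2) against the mean level over the 4 arrays (horizontal axis, log2 relative to the 75th percentile), with all 33464 probes tested as grey hexagons shaded by probe number on a log scale, 2-fold as dashed lines, and the cathepsin and CTSV probes as coloured marks. The 10 cathepsin marks lie above 0, from CTSK at 0.33 to the dimmest CTSB probe at 2.51.

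Of 7 further cathepsin genes looked up beside the members, CTSA and CTSV had named probes. CTSA, also called protective protein, is a serine carboxypeptidase that stabilises lysosomal galactosidase and neuraminidase. It read 6.09, 6.14 and 5.90 in WT 1, WT 2 and WT 3 and 7.34 in KO, 2.46-fold above the WT mean (adjusted p = 0.387 by limma) and 2.38-fold above WT 1. Its dimmer probe read -0.13, -0.72 and -0.96 in WT and 1.29 in KO, 3.70-fold above the WT mean (adjusted p = 0.396 by limma). The WT arrays were close together on the brighter probe (SD 0.13, n = 3).

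CTSV, an endopeptidase close in sequence to CTSL, is listed in the pig gene table with CTSL among its older symbols, so its 10 probes may be those of the gene other sources call CTSL. It was kept apart from the members for this reason. Its brightest probe read 1.35, 2.27 and 2.76 in WT 1, WT 2 and WT 3 and 1.83 in KO, and KO lay inside the WT range. The difference of -0.30 had a 95% interval of -2.09 to 1.50 (adjusted p = 0.862 by limma). KO lay inside the WT range on all 10 CTSV probes, with differences between -0.48 and 0.01. On 9 of them WT 1 was the lowest array, and KO was above WT 1 by 0.27 to 0.48. The remaining probe, the dimmest, ran the other way, at 0.45, -1.22 and -0.43 in WT and -0.41 in KO. Counting CTSV as a member gives 5 of 6 genes with KO above all WT arrays and 3 of 6 at least 2-fold higher, with a median difference of 1.03.

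Inhibitors hold cathepsins in check outside the lysosome, and 3 of 12 in the list were measured. CSTB, or stefin B, an inhibitor in the cytosol, read 5.52, 5.26 and 4.94 in WT and 6.43 in KO, which is 1.19 above the WT mean (adjusted p = 0.426 by limma). SERPINB9, best known as an inhibitor of granzyme B, read 2.28, 1.82 and 1.38 in WT and 2.85 in KO, or 1.02 above the WT mean (adjusted p = 0.493 by limma). CST3, or cystatin C, the secreted inhibitor, did not stand apart in KO. It read 7.72, 7.81 and 7.38 in WT and 7.77 in KO, and the gap of 0.14 had a 95% interval of -0.76 to 1.03. Against WT 1 the gaps were 0.91 for CSTB, 0.57 for SERPINB9 and 0.05 for CST3.

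The other lysosomal genes were read in 5 lists, the inhibitors included, with 29 of 97 genes measured. None passed the test, the smallest adjusted p by limma being 0.311. All 29 were higher in KO than the WT mean, as were 43.1% of all probes, 54.7% of named genes and 64.8% of the bright named genes. Of the 29, 26 were above each WT array (27.0%, 38.1% and 45.7% of the same sets) and 15 were at least 2-fold higher (7.71%, 14.0% and 15.1%), with a median difference of 1.02. Against WT 1 the median was 0.68. Of the 29, 28 were higher than WT 1 (48.2%, 58.8% and 61.0% of the same sets). At least 2-fold above WT 1 were 10 (7.94%, 13.4% and 11.1%). All 14 of these genes with several probes had the same sign by every probe.

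Among the 4 measured genes of activation and sorting, PSAP, the precursor of the saposins that help enzymes reach their lipids, differed by 1.33 but by only 0.60 from WT 1. SCARB2, a lysosomal membrane protein that also serves as a sorting receptor, differed by 1.16. IGF2R, the large mannose 6-phosphate receptor that sorts cathepsin precursors, read -2.48, -2.001 and -2.22 in WT and -1.83 in KO, 0.40 above the WT mean. Among the 12 hydrolases LYZ, the lysozyme that breaks bacterial walls, had the largest difference. It read 3.14, 2.79 and 1.46 in WT and 6.46 in KO, 3.99 above the WT mean and 3.32 above WT 1 (adjusted p = 0.371 by limma). ACP5, the acid phosphatase shared with osteoclasts, lay within the WT range (difference 0.32), and GALNS, a sulfatase, differed by 0.17.

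Among the 6 membrane genes, LAMP1 and LAMP2, the main glycoproteins of the lysosomal membrane, differed by 1.30 and 1.67, and NPC1, the cholesterol exporter, by 1.30. CLN3 lay within the WT range. The 4 measured subunits of the vacuolar ATPase, the pump that acidifies the lysosome, were higher by 0.65 to 1.50, with ATP6V1A the highest. List medians were 1.23 for hydrolases, 1.13 for membrane genes, 1.02 for inhibitors, 0.94 for activation and sorting and 0.73 for the ATPase. Within the shared slide they were 0.88, 1.01, 0.57, 0.62 and 0.54.

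**Figure D4:**
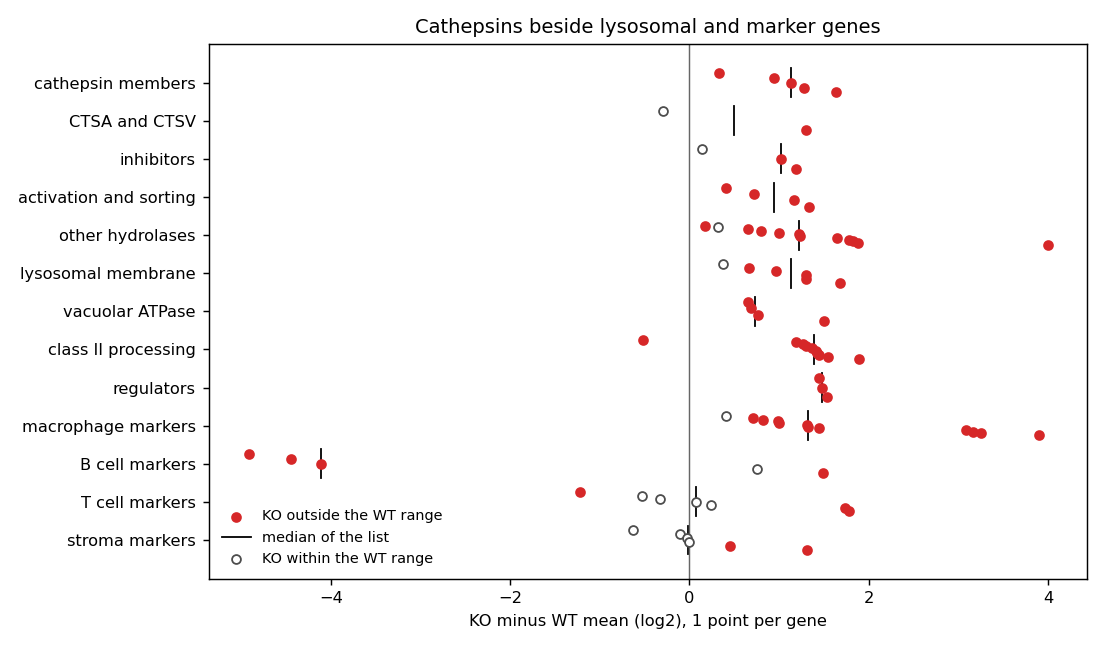
KO minus WT mean on the log2 scale, with 1 point per measured gene by its brightest probe, for the cathepsins and the lysosomal, antigen processing, regulator and marker lists. Filled points are genes with KO outside the range of the 3 WT arrays, open points those within it, and the vertical bar is the list median, which is 1.13 for the cathepsins, 1.32 for macrophage markers, -4.12 for B cell markers and 0.07 for T cell markers.

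The machinery that cathepsins serve in antigen presentation was measured for 10 of 11 genes, and 9 of them were at least 2-fold higher in KO and above each WT array, with a median difference of 1.39 (1.03 against WT 1). The shares over all probes and over the bright named genes were 7.71% and 15.1% for a 2-fold gap and 27.0% and 45.7% for KO above each WT array. CD74, the invariant chain that cathepsins degrade, read 5.20, 4.98 and 4.32 in WT and 6.28 in KO, 1.44 above the WT mean (adjusted p = 0.430 by limma). IFI30, the lysosomal thiol reductase that opens disulfide bonds before cleavage, differed by 1.55, and SLA-DMB, a chain of the peptide exchange factor, by 1.42. SLA-DOB, a chain of the inhibitor of that factor made mainly by B cells, was the exception and read -0.88, -1.27 and -1.78 in WT and -1.83 in KO, whereas its partner SLA-DOA was higher by 1.89. Of the regulators of lysosomal genes, 3 of 7 were measured. STAT3, MITF and SPI1 (PU.1, the factor that drives myeloid genes) were higher by 1.53, 1.47 and 1.45 and by 1.37, 1.32 and 1.09 against WT 1, and none passed the test, the smallest adjusted p by limma being 0.387.

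Markers of cell types differed beside the cathepsins, and their part in the cathepsin differences was not tested. Of 18 macrophage markers 12 were measured, all higher in KO than the WT mean, 11 above each WT array and 7 at least 2-fold higher, with a median difference of 1.32 (1.09 against WT 1). Over all probes and the bright named genes the shares were 43.1% and 64.8% for higher than the WT mean, 27.0% and 45.7% for above each WT array, and 7.71% and 15.1% for at least 2-fold. The summed level of the macrophage markers, in multiples of the 75th percentile signal, was 611 to 792 in WT and 1275 in KO. Such a sum follows its brightest genes more than the 12 markers alike. C1QB was the brightest, at 8.58, 8.16 and 8.03 in WT and 8.96 in KO on the log2 scale. FCGR1A, the high-affinity IgG receptor, differed by 3.89, MRC1, the mannose receptor, by 3.25, and CD163, the haemoglobin scavenger receptor, by 3.17. Against WT 1 these gaps were 2.04, 3.13 and 4.02. The FCGR1A probe was dim, at the 33.3rd percentile of mean signal. It read -2.41, -4.99 and -5.38 in WT 1, WT 2 and WT 3 and -0.37 in KO (WT SD 1.62, n = 3). The complement genes C1QA, C1QB and C1QC, which spleen macrophages make, differed by 0.99, 0.71 and 1.00, and by 0.40, 0.38 and 0.43 against WT 1. VSIG4, a receptor of resident macrophages, was far lower in WT 1 than on the other arrays, at -0.88 in WT 1, 7.21 in WT 2, 6.37 in WT 3 and 4.65 in KO.

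The other marker lists were measured for fewer genes, and no probe of any marker list was below background on all 4 arrays. Of 12 B cell markers 5 were measured, and MS4A1 and CD79A were lower in KO by 4.92 and 4.12, while CD72 and BLNK were higher than the WT mean. Their summed level was 9.998 to 25.5 in WT and 19.8 in KO. The summed level in KO also lay inside the WT range for the 7 of 13 measured T cell markers (23.2 to 72.4 in WT, 30.7 in KO) and the 5 of 10 NK cell markers (8.89 to 38.8, 26.0). It did so for the 3 of 11 dendritic cell markers (5.73 to 11.9, 8.46) and the 6 of 10 stroma markers (112 to 204, 157) as well. Such sums hide genes that moved apart. CD8A and CD4 were above each WT array, by 1.78 and 1.73 over the WT mean. CD247 was below each WT array, by 1.23 under the WT mean. Of the NK cell markers, NKG7 was higher by 1.24 and NCR1 lower by 1.16, both outside the WT range. The 6 of 12 granulocyte markers and the 3 of 8 erythroid markers differed most among the WT arrays themselves. Their summed levels were 3.67 and 1.61 in WT 1, 111 and 38.7 in WT 3, and 16.3 and 2.60 in KO. On the 10 cathepsin probes the 3 WT arrays spanned 0.33 to 1.40, and WT 1 was the lowest WT array on 0 of them. On 9 of the 10 CTSV probes WT 1 was the lowest and WT 3 the highest, the order of those summed marker levels among the WT arrays. The 10 probes read 1 gene, and a link with the marker levels was not tested.

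The genes whose values ran closest to the mean cathepsin profile were found over the 4 arrays, with each gene centred on its own mean. The mean profile was -0.03, -0.38 and -0.38 in WT 1, WT 2 and WT 3 and 0.80 in KO. Of 2427 named genes compared, RENBP, ABR, TKT, TLR6 and PFDN2 were the nearest, at root mean square distances of 0.024 to 0.043, against a median of 0.517 over all genes compared. RENBP is a renin-binding epimerase of amino sugars, TKT the transketolase of the pentose phosphate path, TLR6 a receptor for bacterial lipoproteins and PFDN2 a subunit of the chaperone prefoldin. The members themselves lay farther from their mean, at 0.076 for CTSH, 0.118 for CTSB, 0.209 for CTSD, 0.309 for CTSZ and 0.356 for CTSK, and CTSV lay at 0.870. The nearest genes were picked for the smallest distances among 2427 and the members were not, so their distances cannot be weighed against each other. With 4 arrays, of which 1 is KO, such likeness is a description of these arrays.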

How the data were processed

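Spleen RNA from 3 WT and 1 KO pig samples, as the labels group them, was labelled with Cy3 and hybridised to porcine one-colour arrays. The deposited intensity values are processed signals from the scanner software (Agilent Feature Extraction, release 11.0.1.1) that are background-corrected but not normalised between arrays. The authors also deposited a log2 table of 27421 probes, those well above background on every array before spot flags were applied. Its columns share a median of 8.62 and the same distribution (sorted columns differ by at most 0.00154); the method and centring are not given in the sources used here, and it served as an alternative only. The study describes 2 dyes and 2 KO animals, whereas the files hold 1 channel and the labels 1 KO spleen sample.

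From the intensities, log2 values were taken relative to each array's 75th percentile, and spots of a probe were averaged. Of 43603 probes, 28 were left out for spot flags, and 33464 that were well above background on at least 1 array were tested for KO against WT by the moderated test of limma 3.58.1 (R release 4.3.3), two-sided and adjusted by Benjamini-Hochberg over all probes tested, at an adjusted p under 0.05 with a 2-fold change. The single KO array is assumed to vary like the WT arrays, with 2 residual and 1.93 prior degrees of freedom. An exact permutation test over 4 arrays cannot go below p = 0.25 and was not used. The number of arrays limits the precision. The code was tested on simulated data.

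Accessions of 6686 probes (15.3%) matched RefSeq names of 3020 genes. A gene is represented by its probe with the highest mean. The genes named are all measured members, the measured inhibitors, a few genes fixed by symbol (among them CTSA, CD74, IFI30, LAMP1, LAMP2, MITF and SPI1), and per list at most 3 with the largest differences among genes well above background on all 4 arrays and with KO outside the WT range. CTSV, IGF2R, ACP5, GALNS, CLN3, SLA-DOB, C1QA, C1QB, C1QC, VSIG4, CD72 and BLNK were added after their values were seen. The 5 genes nearest to the mean cathepsin profile were named by distance. The members and lists were chosen with earlier results of these data known. Coordinates and sequences are not printed, since no genome build is named in the sources used here and no sequence table was used. Alternatives covered normalisation, background correction, filters, slide, probe summary, test and replicates. Normexp used the median spot signal. Some genes of the lists are not reported here by name.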

Additional observations from a re-analysis of the deposited data

How the results depend on the processing

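None of the 5 measured members met the significance and 2-fold thresholds together in any of the 17 alternatives tried, and KO was above each WT array kept for the 5 genes. An unpaired t-test without adjustment was among these alternatives, and CTSH alone passed its p threshold, with a gap under 2-fold. The paper reports Bonferroni corrections for its unpaired t-tests, and that correction was not run here. Each of the 5 differences stayed positive in the 16 alternatives that apply to a single gene. The number at least 2-fold higher, 3 of 5, became 1 with slide as a block and lay between 2 (without WT 3) and 4 (without WT 1) when 1 WT array was left out. This number was 2 with quantile normalisation and in the deposited table. It was 4 with a median shift, with the mean over the probes of a gene and with the second brightest probe. The median difference of 1.13 became 0.89 with quantile normalisation and 0.89 in the deposited table, 1.37 with a median shift, 0.95 with slide as a block, 1.39 with the mean over the probes of a gene and 1.62 with the second brightest probe. It lay between 0.94 (without WT 3) and 1.23 when 1 WT array was left out. CTSV turned from -0.30 to 0.47 with slide as a block, and lay between -0.69 (without WT 1) and 0.014 (without WT 3) when 1 WT array was left out. Counting CTSV as a member was chosen after seeing the data. Gene differences ranged from 1.00 to 1.88 for CTSB, 0.89 to 1.64 for CTSD, 0.70 to 1.18 for CTSH, 0.19 to 0.57 for CTSK and 1.17 to 1.88 for CTSZ. The CTSZ difference was 1.87 without WT 1, the slide partner of KO, 1.44 without WT 2 and 1.60 without WT 3. The median of all probes moved from -0.11 to 0.13 with a median shift and to -0.22 with the 75th percentile of detected probes. Over all probes, limma called 4 with normexp and 6 with an intensity trend, and the unpaired t-test called 1333 before adjustment and 0 after Benjamini-Hochberg. No cathepsin was among the probes called with normexp or the trend. The cause of these shifts was not tested. No paired analysis was possible because, with 1 KO array, the groups share fewer than 2 replicate numbers. The slide joins KO to WT 1 only and was fitted as a block. A single KO array, 2 residual degrees of freedom and probes for 5 of 8 genes limit what can be read from these values.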
